A study of Mus musculus with 39 samples.

Results

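The 45 genes described here encode proteins of the complement and coagulation cascades, and they were chosen by gene symbol, with no measured value in the rule. All 45 symbols occurred in the table of 24537 genes for kidney, liver and lung and in the table of 52508 genes for skin. After the filter on low counts, 25 of the 45 could be tested in kidney and 37 in liver, against 20 in lung and 15 in skin, with 10 tested in all 4 tissues and 2 (Masp1 and F8) in none. The genes were kept in 8 groups by role, so that the 3 C1q subunit genes, which macrophages transcribe, stayed apart from the factors that hepatocytes secrete.

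Bulk 3′ RNA-seq was measured in 39 libraries from kidney, liver, lung and skin of C57BL/6 mice that all carried the Prf1-/- genotype, so that every comparison was made within perforin-deficient animals. Young mice were 3 months old and untreated (4 libraries per tissue, 3 in skin). Old mice were 20 months old and had received from 18 months of age either ABT-737, an inhibitor of anti-apoptotic BCL-2 family proteins, at 25 mg/kg or its DMSO-based vehicle (3 libraries of each per tissue, numbered 3 to 5). Between young and vehicle mice, age and the vehicle injections cannot be told apart. Some drug-treated mice carry a treatment label of ABT-738 or ABT-739, but ABT-737 in their titles, and were counted as ABT-737. Tissues were taken whole after perfusion, and in such bulk samples fewer cells of a type and less RNA per cell cannot be told apart.

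Libraries held 1431814 to 3513311 counts in kidney, 223957 to 891116 in liver, 1046508 to 2600092 in lung and 1493411 to 3842808 in skin. Values are given as CPM, the counts per 1000000 counts of the TMM-scaled library, and a gene was called when its adjusted p-value from edgeR's quasi-likelihood test was under 0.05. Tubule markers summed to 10153 to 12813 CPM in kidney, hepatocyte markers to 113563 to 144908 in liver, alveolar and airway epithelial markers to 29032 to 61469.8 in lung and keratinocyte markers to 9843 to 34479 in skin. The library of vehicle replicate 3 in liver stood apart from its group. It had the lowest depth of all, 223957 counts, and the lowest rank correlation with its group mean, 0.796.

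Complement is a cascade of plasma proteases. C1q binds antibody complexes or dying cells, the C1r and C1s proteases then cleave C4 and C2, and the convertases that form split C3 and start the lytic terminal pathway, whereas the alternative pathway amplifies C3 cleavage with factor B and properdin. Coagulation runs through vitamin K-dependent proteases to thrombin, which turns fibrinogen into fibrin that factor XIII cross-links. Hepatocytes make most of these plasma proteins, C1q and properdin come mainly from myeloid cells, and von Willebrand factor and thrombomodulin are products of endothelium.

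The upstream sequences of 2 C1q genes and of the 3 fibrinogen genes are shown because these are the groups that were separated below. The C1q genes lie side by side on chromosome 4 (mm10; C1qb chr4:136880145-136886177, C1qc chr4:136889802-136892914, C1qa chr4:136895916-136898844) and the fibrinogen genes on chromosome 3 (Fgg chr3:83007724-83015056, Fga chr3:83026153-83033617, Fgb chr3:83042246-83049863). Each sequence is intergenic or intronic DNA before the gene's start in RefSeq (GRCm38.p6), written 5′ to 3′ in the direction of transcription and without bases annotated as exon. Positions are chr4:136886201-136886450, minus strand for C1qb, chr4:136893066-136893164, minus strand for C1qc, chr3:83007474-83007723, plus strand for Fgg, chr3:83025903-83026075, plus strand for Fga and chr3:83049864-83050113, minus strand for Fgb. Capitals mark matches, on either strand, to the PU.1 core GAGGAA, the HNF1 half-site GTTAAT or the STAT site TTCNNNGAA.
C1qb: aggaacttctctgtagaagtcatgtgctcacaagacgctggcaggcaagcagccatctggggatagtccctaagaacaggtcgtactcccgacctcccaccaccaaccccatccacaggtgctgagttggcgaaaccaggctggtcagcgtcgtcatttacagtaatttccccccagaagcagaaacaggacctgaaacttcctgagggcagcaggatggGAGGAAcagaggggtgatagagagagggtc
C1qc: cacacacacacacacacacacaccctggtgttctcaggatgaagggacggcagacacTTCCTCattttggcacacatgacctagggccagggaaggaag
Fgg: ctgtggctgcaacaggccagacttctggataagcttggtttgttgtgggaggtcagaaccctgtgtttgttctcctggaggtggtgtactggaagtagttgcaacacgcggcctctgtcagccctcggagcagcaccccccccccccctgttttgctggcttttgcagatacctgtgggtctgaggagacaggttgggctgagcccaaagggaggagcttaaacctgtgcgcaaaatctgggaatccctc
Fga: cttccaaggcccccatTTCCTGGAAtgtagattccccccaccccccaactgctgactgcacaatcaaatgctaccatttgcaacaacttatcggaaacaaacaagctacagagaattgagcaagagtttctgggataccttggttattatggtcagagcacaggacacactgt
Fgb: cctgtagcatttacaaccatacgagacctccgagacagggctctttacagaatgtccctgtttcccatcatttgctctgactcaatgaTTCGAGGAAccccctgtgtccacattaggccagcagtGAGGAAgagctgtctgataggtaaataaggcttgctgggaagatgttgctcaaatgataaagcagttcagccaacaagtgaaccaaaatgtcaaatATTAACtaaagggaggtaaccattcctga

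The C1qb and C1qc sequences each held the PU.1 core and none of the other motifs. The Fga sequence held a STAT site, the Fgb sequence held all 3 motifs, and the Fgg sequence held none. Promoter windows were found for 34 of the 45 genes, and in each the 250 bases before the start, exon bases included, were searched. The PU.1 core occurred in 4 of them (C1qb, C1qc, F7 and Fgb) and in 23.3% of all 32851 RefSeq promoters. The HNF1 half-site occurred in 10 (C1ra, C4bp, C7, C8a, C8b, Cfp, F13b, Fga, Fgb and Hc) against 6.43% of all promoters, and the STAT site in 7 (C7, C8a, F9, Fga, Fgb, Masp2 and Pros1) against 7.02%. An interferon-type motif, with 2 GAAA stretches on either side of a pair of bases, occurred in 0 members and in 2.98% of promoters. These are matches of letters in a window and not measured binding.

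In young mice the members divided by the tissue in which they were highest. Fitted together, young liver exceeded young kidney for 36 of 42 members tested and fell below it for 2, whereas 13.7% of all genes were higher in liver and 27.6% lower. Against young lung, 33 members were higher in liver and 4 lower, with 24.6% and 37.6% of all genes. The 32 members higher in liver than in both other tissues included Fga, the fibrinogen α chain, at 5853 ± 858 CPM (SD, n = 4) in liver, 15.3 ± 3.13 in kidney and 6.01 ± 10.04 in lung.

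C3, the central complement component, averaged 5895 ± 754 CPM in young liver, 461 ± 95.1 in lung and 16.4 ± 3.13 in kidney (SD, n = 4 each). C1qa followed another order, with 157 ± 17.1 CPM in liver, 115 ± 21.4 in lung and 50.2 ± 6.95 in kidney. Liver exceeded kidney for C1qa, C1qb and C1qc by log2 fold changes of 1.65, 1.48 and 1.23, but none of the 3 was called between liver and lung (0.45 ± 0.33 (SE), -0.52 ± 0.35 and 0.43 ± 0.39).

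A few factors usually counted as hepatic were transcribed at sizeable levels elsewhere. Kng2, a kininogen gene with the paralog Kng1, stood at 394 ± 23.5 CPM in young kidney and 667 ± 68.8 in liver, a difference that was not called (0.76 ± 0.37, SE). Proc, encoding protein C, reached 307 ± 16.7 CPM in kidney against 1.53 ± 1.13 in lung, and Cfb, encoding factor B, 656 ± 58.6 against 42.6 ± 15.6. Lung instead carried Hc (complement C5; 157 ± 19.3 CPM), C6 (72.96 ± 6.94) and F7 (38.3 ± 12.5), which had 0 to 4 counts in every young kidney library. Von Willebrand factor (Vwf) and thrombomodulin (Thbd) were highest in lung, at 401 ± 84.1 and 318 ± 91.8 CPM.

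**Figure D1:**
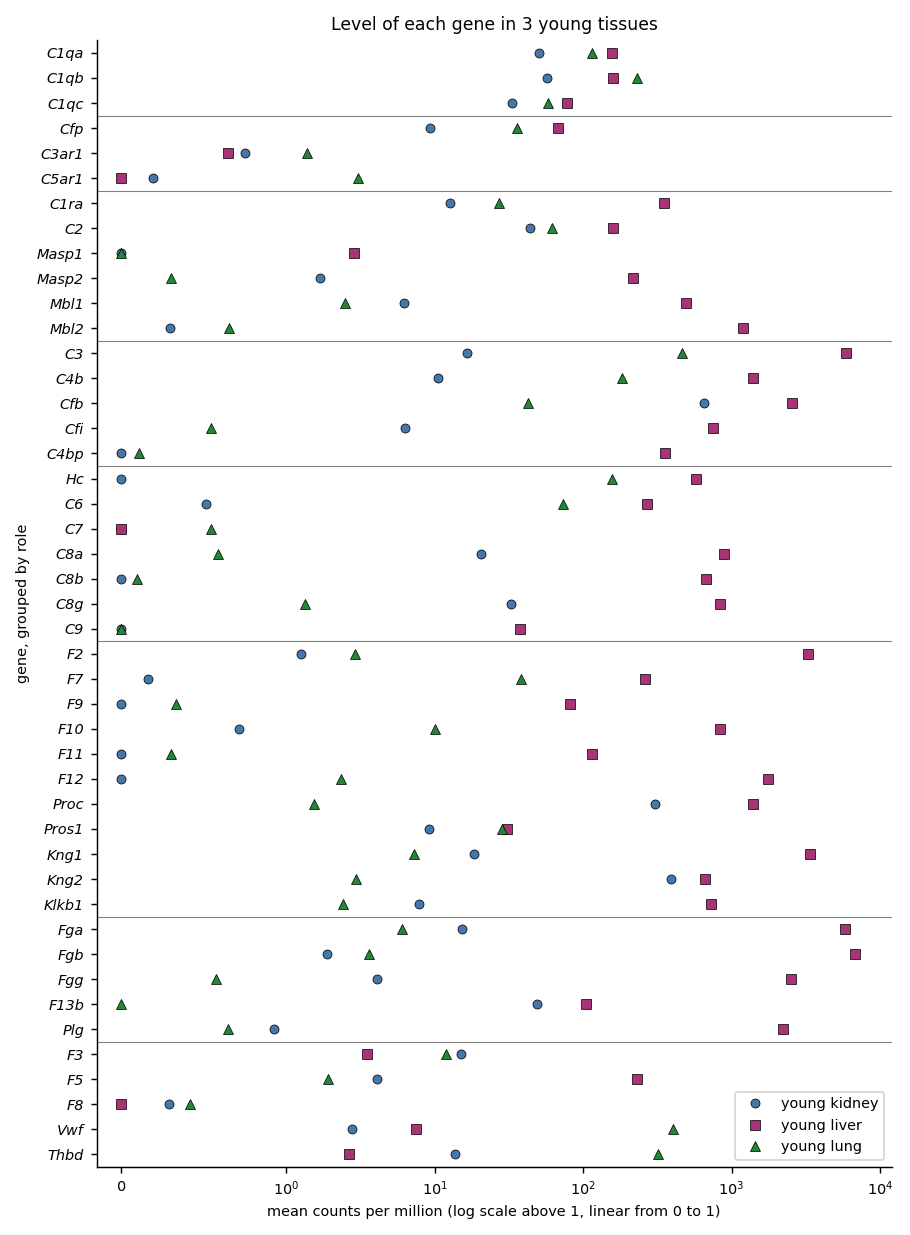
Level of each member in young kidney, liver and lung on a log axis, as the mean CPM of 4 libraries per tissue in a common scaling. Most clotting and terminal complement genes lie furthest right in liver, the C1q genes lie close together in all 3 tissues, and Vwf and Thbd lie furthest right in lung.

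Between vehicle-treated old mice and young mice, more members were called higher than lower in each of the 4 tissues. In kidney 15 of 25 tested members were higher (7.75% of all genes tested were higher) and 2 lower (5.5%), with a median log2 fold change of 1.02 over members and 0.01 over all genes. In liver 10 of 37 were higher (11.7%) and 4 lower (10.8%), with medians of 0.06 and 0.02. In lung 8 of 20 were higher (8.15%) and 0 lower (4.73% of all genes), and 0 members were lower at an unadjusted p under 0.05 or by DESeq2.

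In skin 11 of 15 were higher (5.84% of all genes) and 0 lower (5.34%), again with 0 members lower at an unadjusted p under 0.05 or by DESeq2. The skin calls depended on single libraries of both groups, since 1 member remained called without young replicate 1 (C2), 0 without young replicate 2 and 2 without vehicle replicate 5. The medians over members and all genes were 0.77 and 0.04 in lung and 2.13 and 0.05 in skin. The 15 skin genes are those that passed the filter, and the fibrinogen genes are not among them. Young replicate 1 of skin held 15, 18 and 14 counts of Fga, Fgb and Fgg, against 0 to 1 in the other young libraries and 0 to 12 in the old ones, and had the highest hepatocyte marker sum of the young skin libraries (475 CPM against 239 and 169). Vehicle replicate 4 had a similar hepatocyte marker sum, 468 CPM. Its fibrinogen, factor XIII B and plasminogen group, however, summed to 3.88 CPM, against 35.8 in young replicate 1. The part of hepatocyte RNA in the skin values was not tested.

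Between ABT-737-treated and vehicle-treated mice, which share the vehicle libraries with the comparison above, 6 of 25 members were lower in kidney (1.21% of all genes) and 5 of 37 in liver (2.85%), and 0 were higher in either (0.135% and 1% of all genes). At an unadjusted p under 0.05, 2 of 25 members were higher and 10 lower in kidney, against 1649 of 11123 genes in either direction. In liver 4 of 37 members were higher and 8 lower, against 900 of 5583 genes. DESeq2 called 7 lower in kidney and 5 lower in liver, and 0 higher in either, against 229 and 205 of all genes in either direction. In kidney the number depended on single libraries, with 3 members lower without vehicle replicate 4 or ABT-737 replicate 3 and 1 (C1qa) without ABT-737 replicate 4, and in liver 7 were lower and 1 higher without vehicle replicate 3.

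In lung and skin, edgeR called 0 genes of any kind between ABT-737 and vehicle (0% of 11949 and of 14224 genes). At an unadjusted p under 0.05 there were 1919 of 11949 genes in lung and 3 of 20 members (C1qc, C3ar1 and Cfb, all lower), a share that did not exceed that of all genes. In skin there were 1131 of 14224 genes and 10 of 15 members, all lower. DESeq2 called 342 genes in lung and 60 in skin, with 0 members in both. Without ABT-737 replicate 4 of lung, edgeR called 2 members, C7 and F5, both higher after ABT-737. In lung, deviations of same-numbered vehicle and drug libraries correlated positively in every pair, although vehicle replicate 4 correlated more with a drug library of another number. A lung fit with the replicate number as a block called 874 of 11949 genes (7.31%, with 3.5% lower). It called C1qc lower (log2 difference -1.35 ± 0.33 SE, adjusted p = 0.0257), Cfb lower (-1.26 ± 0.33, adjusted p = 0.0358) and C1qb lower (-0.98 ± 0.28, adjusted p = 0.0455).

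**Figure D2:**
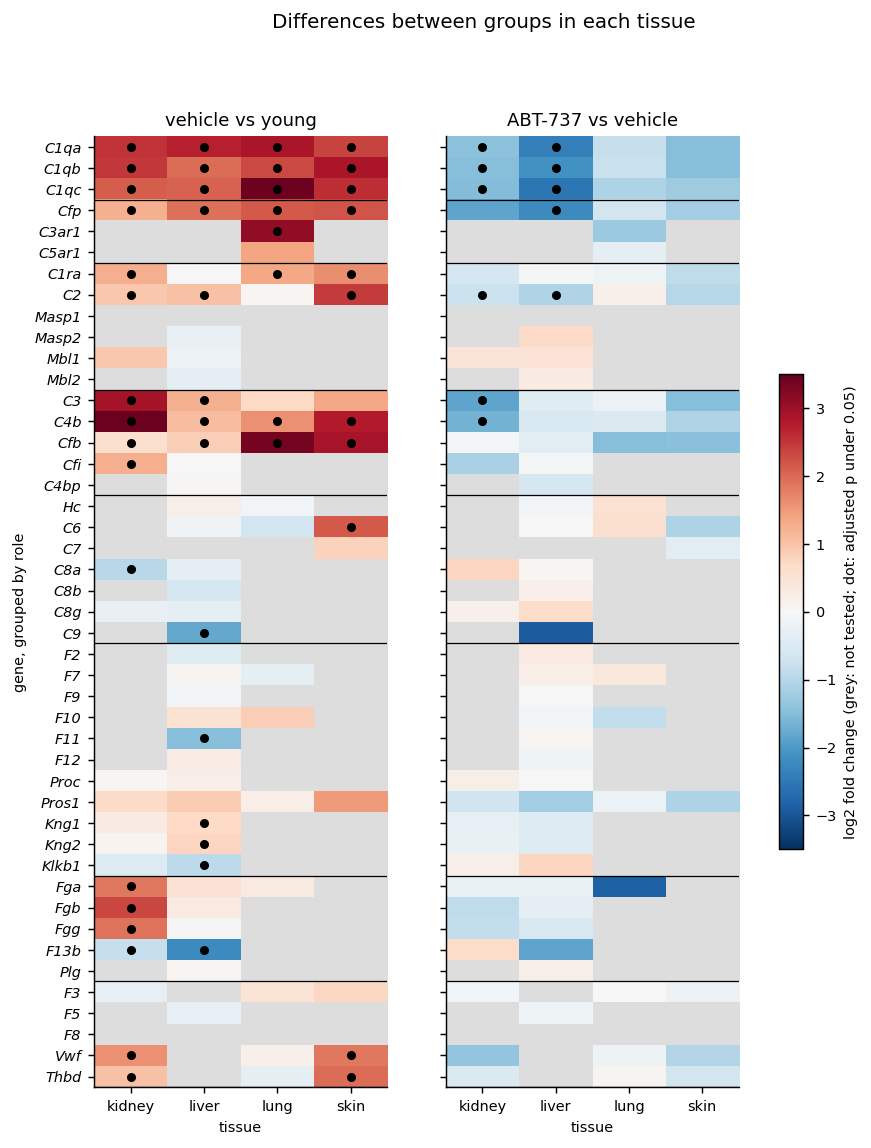
Log2 fold change of each member as a colour, vehicle minus young and ABT-737 minus vehicle, in each of the 4 tissues. Dots mark calls at an adjusted p under 0.05, and grey marks members not tested. The C1q genes have positive values for vehicle minus young in all 4 tissues and negative values for ABT-737 minus vehicle, and both comparisons use the same vehicle libraries.

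The 3 C1q genes, which encode the chains of the recognition molecule of the classical pathway, were higher in vehicle-treated than in young mice in all 4 tissues. In kidney, C1qa was at 46.9, 53.7, 56.2 and 66.6 CPM in young libraries, at 281, 429 and 260.0 CPM in vehicle replicates 3, 4 and 5 and at 101, 95.02 and 165 CPM in ABT-737 replicates 3, 4 and 5. The 3 groups did not overlap, and the drug-treated libraries lay between the other groups. C1qa differed by 2.53 ± 0.21 (SE, adjusted p = 2.07e-06) between vehicle and young on the log2 scale, by -1.42 ± 0.23 (SE, adjusted p = 0.00365) between ABT-737 and vehicle and by 1.11 ± 0.22 (SE, adjusted p = 0.0127) between ABT-737 and young.

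Kidney C1qb stood at 67.4, 64.96, 40.8 and 81.7 CPM in young, 378, 424 and 249.8 in vehicle and 90.9, 106 and 179 in ABT-737 libraries, with log2 fold changes of 2.47 ± 0.25 (SE, adjusted p = 1.12e-05) for vehicle against young and -1.48 ± 0.27 (SE, adjusted p = 0.00915) for ABT-737 against vehicle. C1qc stood at 34.97, 41.4, 35.8 and 35.8 CPM in young, 103, 260.5 and 127 in vehicle and 52.1, 31.02 and 87.8 in ABT-737 libraries, and its differences were 2.12 ± 0.31 (SE, adjusted p = 0.000251) and -1.51 ± 0.33 (SE, adjusted p = 0.032). Vehicle replicate 4 was the highest library for all 3 genes. Lower C1qa after ABT-737 was called with any 1 library left out, whereas C1qb missed the threshold without ABT-737 replicate 4 (adjusted p = 0.0559). C1qc missed it without young replicate 3 or 4, vehicle replicate 4 (-1.02, adjusted p = 0.168) or ABT-737 replicate 3 or 4, with adjusted p-values from 0.0525 to 0.168. C1qa was above young in ABT-737 kidney except without young replicate 2 (adjusted p = 0.0515) or ABT-737 replicate 5 (0.0584).

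In liver, C1q after ABT-737 overlapped the level of young mice. C1qa was at 95.4, 111, 122 and 119 CPM in young, 826, 689.6 and 689 in vehicle and 126, 103 and 189.7 in ABT-737 libraries. C1qb was at 89.8, 101, 119 and 145, 320.5, 484 and 508 and 88.1, 54.99 and 163 CPM in the same order, and C1qc at 50.5, 56.2, 47.4 and 68.6, 236, 256 and 209.7 and 42.1, 27.5 and 52.8. For each gene every vehicle library lay above every other library. Against young mice, vehicle mice were higher by 2.71 ± 0.23 (SE, adjusted p = 2.82e-06) for C1qa, 1.96 ± 0.30 (SE, adjusted p = 0.00029) for C1qb and 2.07 ± 0.23 (SE, adjusted p = 2.27e-05) for C1qc. ABT-737 mice were lower than vehicle mice, with differences of -2.39 ± 0.26 (SE, adjusted p = 0.000144), -2.12 ± 0.34 (SE, adjusted p = 0.00213) and -2.54 ± 0.28 (SE, adjusted p = 0.000144), and between ABT-737 and young mice the differences of 0.32 ± 0.24 (SE, adjusted p = 0.454), -0.16 ± 0.32 (SE, adjusted p = 0.804) and -0.47 ± 0.28 (SE, adjusted p = 0.327) were not called. Both sets of calls held with any 1 library left out.

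Lung C1q was also higher in vehicle mice, with a wide spread after ABT-737. C1qa stood at 156, 175, 130.5 and 114 CPM in young, 660.5, 712 and 1729 in vehicle and 191, 708 and 860.0 in ABT-737 libraries. C1qb stood at 286, 321, 263 and 276, 831, 1535 and 1900.0 and 312, 1464 and 696 CPM, and C1qc at 81.9, 62.2, 59.8 and 85.2, 525, 648 and 1191 and 88.9, 466 and 553. Vehicle replicate 5 was highest for each gene, and ABT-737 replicate 3 was the lowest of the drug-treated libraries. The lung libraries of ABT-737 also differed in other markers. Replicate 4 had adipocyte markers at 1837 CPM against 66.5 and 42.7, hepatocyte markers at 871 against 71.01 and 25.3, and a rank correlation of 0.851 with its group mean. Its fibrinogen, factor XIII B and plasminogen group summed to 7.33 CPM, against 41.9 in young replicate 1, which had hepatocyte markers at 630 CPM. Replicate 3 had red cell markers at 62409 CPM against 6139.5 and 11423. The part of these in the lung values was not tested. The differences between vehicle and young were 2.84 ± 0.47 (SE, adjusted p = 0.00316) for C1qa, 2.31 ± 0.44 (SE, adjusted p = 0.00549) for C1qb and 3.44 ± 0.50 (SE, adjusted p = 0.00259) for C1qc. ABT-737 lung was above young lung for C1qa (2.03 ± 0.46 (SE, adjusted p = 0.0404)) and C1qc (2.35 ± 0.48 (SE, adjusted p = 0.0328)). Neither was called without any one of the 4 young libraries or without ABT-737 replicate 5, with adjusted p-values from 0.0988 to 0.174. With all libraries C1qb was not called (1.52 ± 0.43 (SE, adjusted p = 0.0707)), and it was called when vehicle replicate 5 was left out (adjusted p = 0.047) or ABT-737 replicate 3 was (0.0262).

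In skin, C1qa stood at 72.3, 83.2 and 172 CPM in the 3 young libraries, 328, 605 and 755 in vehicle and 214, 129 and 260.1 in ABT-737 libraries. C1qb stood at 30.1, 66.1 and 136, 301, 601 and 781 and 185, 133 and 285 CPM, and C1qc at 21.5, 35.3 and 78.9, 166, 311 and 344 and 105, 78.00 and 162. Young replicate 3 was the highest young library for each gene, and vehicle libraries lay above all others. The log2 differences from young were 2.36 ± 0.44 (SE, adjusted p = 0.0171) for C1qa, 2.85 ± 0.57 (SE, adjusted p = 0.0197) for C1qb and 2.58 ± 0.50 (SE, adjusted p = 0.0182) for C1qc. Without young replicate 1, young replicate 2 or vehicle replicate 5, none of the 3 genes was called (adjusted p from 0.0523 to 0.0848). Between ABT-737 and vehicle skin the differences were -1.49 ± 0.43 (SE, adjusted p = 0.476), -1.48 ± 0.54 (SE, adjusted p = 0.549) and -1.25 ± 0.47 (SE, adjusted p = 0.577), which were not called. The libraries of the 2 groups did not overlap, but how many of all genes separate in this way was not counted.

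**Figure D3:**
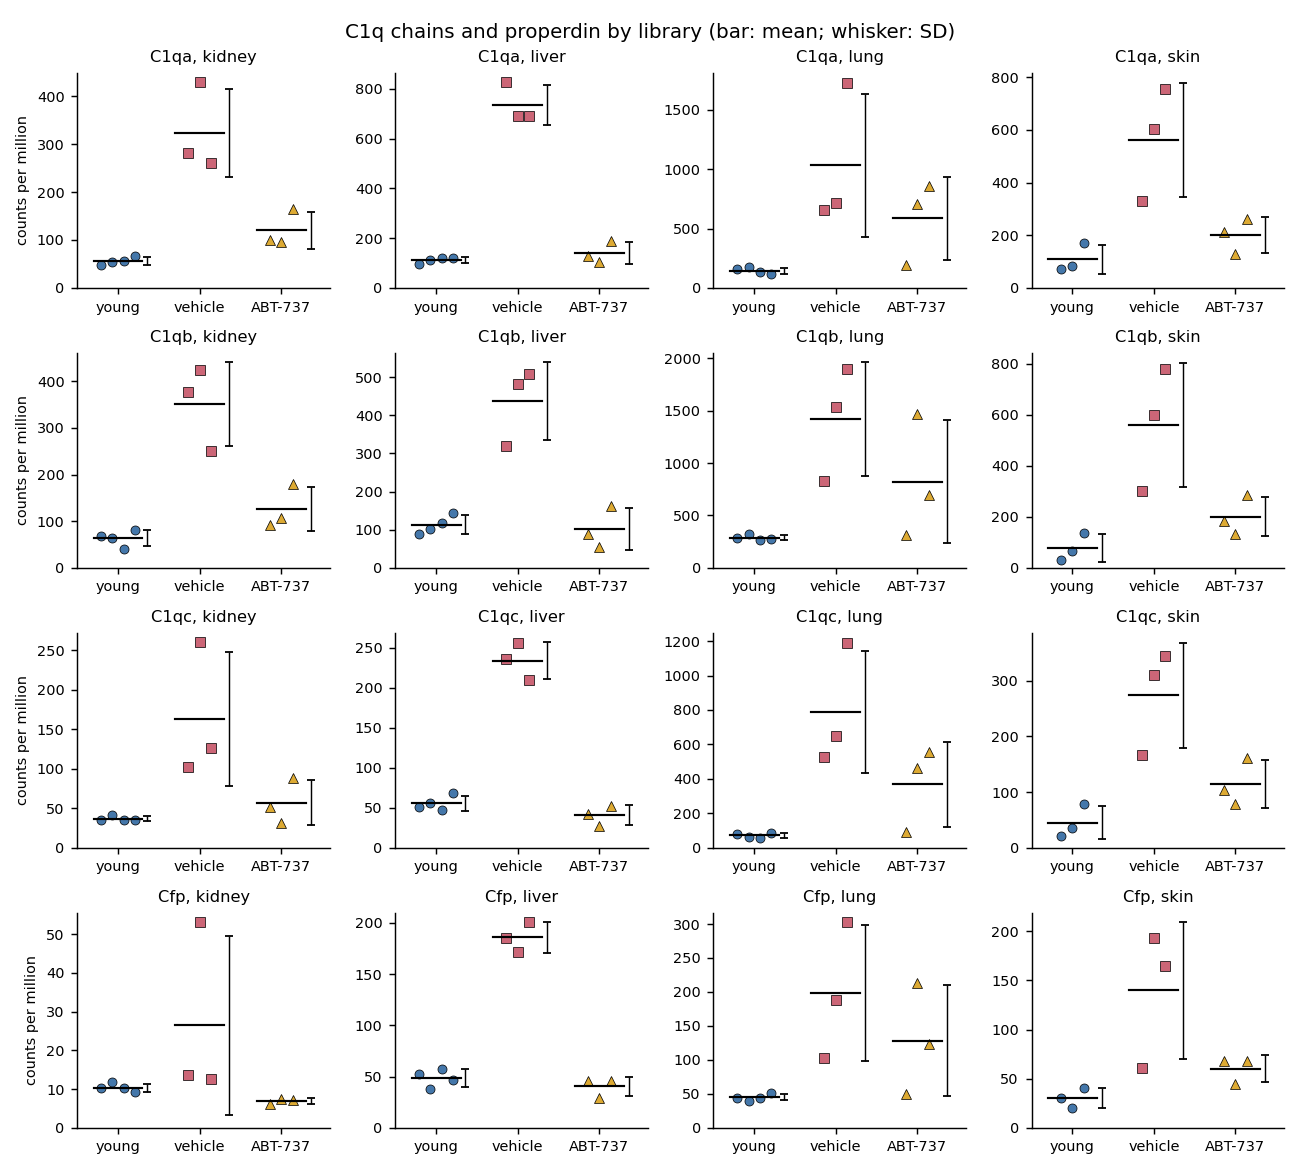
CPM of C1qa, C1qb, C1qc and Cfp in each library of kidney, liver, lung and skin, with points for libraries, a bar for each group mean and a whisker for the SD. Vehicle libraries lie above the young libraries in all 4 tissues, and ABT-737 libraries of liver overlap the young ones.

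Other macrophage markers moved with C1q. Of the macrophage list, which holds none of the members, 12 of 13 tested genes were higher in vehicle than in young kidney, 9 of 10 in liver (with 1 lower), 11 of 14 in lung and 13 of 14 in skin. Between ABT-737 and vehicle, 5 of 13 were lower in kidney and 9 of 10 in liver, and 0 in lung and skin, where edgeR called 0 genes of any kind. In liver, Csf1r, a receptor that defines macrophages, changed by 1.94 and then by -2.33 on the log2 scale, and Adgre1 was at 0 in all 3 ABT-737 libraries and at 0, 5 and 9 counts in vehicle libraries. The Kupffer cell list had 3 of 4 tested genes higher in vehicle liver and 2 of 4 lower after ABT-737.

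The macrophage markers summed in kidney to 171 to 211 CPM in young, 437 to 707 in vehicle and 241 to 343 in ABT-737 libraries. In liver the sums were 204 to 293 CPM in young, 561 to 887 in vehicle and 157 to 252 in ABT-737 libraries. The Kupffer list summed in liver to 211 to 295 CPM in young, 548 to 974 in vehicle and 167 to 243 in ABT-737 libraries. Macrophage and Kupffer sums of vehicle liver thus lay above the other groups without overlap. In lung the macrophage sums were 1167 to 1427 CPM in young, 2456 to 6385 in vehicle and 1456 to 3035 in ABT-737 libraries, and in skin 172 to 487 CPM in young, 1181 to 3112 in vehicle and 478 to 954 in ABT-737 libraries. The summed C1q level came to 85.1% ± 5.58 (SD, n = 4) of the macrophage sum in young kidney, 145% ± 12.95 (n = 3) in vehicle kidney and 103% ± 21.5 (n = 3) in ABT-737 kidney, and in liver to 112% ± 11.7, 190.4% ± 48.9 and 146% ± 28.9. In lung the percentages were 39.3% ± 4.13, 86.5% ± 27.5 and 72.1% ± 32.8. In skin they were 74.7% ± 4.11, 68.0% ± 7.92 and 69.7% ± 5.34. T cell markers also rose between young and vehicle mice (5 of 5 tested in kidney, 7 of 7 in lung and 4 of 5 in skin). Between ABT-737 and vehicle, 3 of 5 T cell markers were lower in kidney (median log2 fold change -2.003 over the 5), and the 7 in lung and 5 in skin had negative values that were not called (medians -1.57 and -1.29). The part of cell content in the C1q differences was not tested.

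Properdin (Cfp), the leukocyte-made stabilizer of the alternative convertase, followed C1q in liver. It stood there at 52.4, 37.4, 57.8 and 46.3 CPM in young, 186, 171 and 201 in vehicle and 45.97, 29.3 and 45.6 in ABT-737 libraries, without overlap between vehicle and the rest. The log2 differences were 1.94 ± 0.22 (SE, adjusted p = 3.57e-05) for vehicle against young and -2.24 ± 0.27 (SE, adjusted p = 0.000223) for ABT-737 against vehicle. In lung Cfp rose from 43.9, 40.1, 44.2 and 51.1 CPM in young to 103, 189 and 303 in vehicle libraries (2.15 ± 0.42 (SE, adjusted p = 0.00641)), and in skin from 30.8, 19.9 and 40.6 to 61.3, 193 and 165 (2.20 ± 0.43 (SE, adjusted p = 0.019)). The skin call was absent without young replicate 1 or 2 or vehicle replicate 5. In kidney Cfp was called (1.25 ± 0.39 (SE, adjusted p = 0.0457)) through vehicle replicate 4, the highest of vehicle libraries that ranged from 12.6 to 53.05 CPM, against 9.18 to 11.8 in young ones. Without it the difference was 0.34 (adjusted p = 0.457).

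The anaphylatoxin receptor genes C3ar1 and C5ar1 passed the filter only in lung. C3ar1 had 4, 1, 2 and 6 counts in young, 24, 19 and 61 in vehicle and 3, 6 and 23 in ABT-737 lung libraries, and was higher in vehicle than in young lung (3.10 ± 0.58 (SE, adjusted p = 0.00529)). C5ar1 had 3 to 13, 13 to 29 and 8 to 16 counts and was not called (1.39 ± 0.48 (SE, adjusted p = 0.0714)). In skin, below the filter, C3ar1 had 0 to 2 counts in young and 7 to 74 in vehicle libraries.

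C2, the protease that joins C4b in the classical convertase, changed in 3 of the tissues. In kidney it stood at 49.04, 49.3, 47.2 and 50.9 CPM in young, 80.4, 114 and 89.2 in vehicle and 59.3, 45.8 and 61.4 in ABT-737 libraries (0.94 ± 0.16 (SE, adjusted p = 0.000829) and -0.76 ± 0.17 (SE, adjusted p = 0.0353) for vehicle against young and ABT-737 against vehicle). In liver the values were 138, 97.9, 90.4 and 122, 308, 171 and 226 and 91.9, 125 and 110.5 CPM (1.04 ± 0.24 (SE, adjusted p = 0.006) and -1.06 ± 0.27 (SE, adjusted p = 0.0362)). Vehicle libraries were the highest in both tissues, without overlap. The lower values after ABT-737 were not called without any one of 8 kidney libraries (all but vehicle replicate 3 and ABT-737 replicate 5; adjusted p up to 0.166) or without any one of 6 liver libraries (young replicates 2 and 4, vehicle replicate 5 and ABT-737 replicates 3, 4 and 5; adjusted p up to 0.139).

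In skin C2 had the smallest adjusted p of the members, at 16.5, 10.3 and 11.7 CPM in young, 60.04, 79.3 and 69.7 in vehicle and 39.1, 19.8 and 45.3 in ABT-737 libraries (2.45 ± 0.33 (SE, adjusted p = 0.0112) for vehicle against young). It missed the threshold without young replicate 2 (adjusted p = 0.0567). C2 was also the only member called between ABT-737 and young skin, against 5.18% of all genes called and 2% higher there (1.45 ± 0.33 (SE, adjusted p = 0.0403)). That call was absent without any one young library, vehicle replicate 3 or ABT-737 replicate 5 (adjusted p from 0.0576 to 0.16). In the skin table C2 and Cfb both overlap the gene model Gm20547 on the same strand. In lung C2 was not called (0.06 ± 0.35 (SE, adjusted p = 0.928)).

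C1ra, which encodes the C1r protease, was higher in vehicle than in young kidney, at 35.9, 38.1 and 28.01 against 11.5, 13.7, 12.8 and 18.4 CPM (1.27 ± 0.21 (SE, adjusted p = 0.000714)). It was called in lung (1.35 ± 0.39 (SE, adjusted p = 0.0366)) and in skin (1.64 ± 0.45 (SE, adjusted p = 0.0456)), but not in liver (0.00 ± 0.21 (SE, adjusted p = 0.995)). The lung call was absent without any one young library, vehicle replicate 3 or vehicle replicate 5 (0.84, adjusted p = 0.273), and the skin call without young replicate 1 or 2, any one vehicle library or ABT-737 replicate 5 (adjusted p up to 0.156). Skin C1ra overlaps its neighbour C1rl. The mannose-binding lectins Mbl1 and Mbl2 and the protease Masp2 of the lectin pathway were not called in liver between vehicle and young mice (-0.22, -0.34 and -0.28). Kidney Mbl1 was at 5.05 to 8.10 CPM in young and higher, at 14.97 to 24.6, in ABT-737 libraries (1.39 ± 0.31 (SE, adjusted p = 0.0251)), a call that was absent without any one young library or ABT-737 replicate 4 (adjusted p from 0.0512 to 0.0991).

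C3 and C4b were higher in old vehicle mice both in the liver, their main source, and in kidney. C3 (chr17:57203967-57228136, where it contains Mir6978) stood in kidney at 15.4, 15.9, 18.3 and 23.4 CPM in young, 63.2, 259.8 and 96.2 in vehicle and 34.7, 32.5 and 48.01 in ABT-737 libraries. Vehicle replicate 4 was the highest by far and the groups did not overlap. The log2 differences were 2.92 ± 0.36 (SE, adjusted p = 6.59e-05) for vehicle against young and -1.84 ± 0.38 (SE, adjusted p = 0.0219) for ABT-737 against vehicle. The second was not called without ABT-737 replicate 3 (adjusted p = 0.0809) or replicate 4 (0.104). Between ABT-737 and young kidney, C3 differed by 1.08 ± 0.39 (SE, adjusted p = 0.167) and was not called, but it was without vehicle replicate 4 (adjusted p = 0.0157), in a fit of only these 2 groups (0.0138) and without a filter beyond 1 count (0.0319).

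In liver C3 stood at 3819, 4896, 4052 and 3970.4 CPM in young, 6996, 10626 and 12115 in vehicle and 9738, 5968 and 6447 in ABT-737 libraries. It rose from young to vehicle by 1.24 ± 0.27 (SE, adjusted p = 0.00372), and unlike C1q it was not called between ABT-737 and vehicle (-0.43 ± 0.29 (SE, adjusted p = 0.519)), where the libraries overlapped. Leaving out any one vehicle library gave a call for C3 above young in ABT-737 liver (adjusted p from 0.00962 to 0.0486), against 0.82 ± 0.27 (SE, adjusted p = 0.0702) with all libraries. In lung and skin C3 was not called between vehicle and young mice (0.69 ± 0.29 (SE, adjusted p = 0.127) and 1.37 ± 0.64 (SE, adjusted p = 0.174)). Lung C3 was at 660.5, 1001 and 1121 CPM in vehicle libraries and 434 to 687 in young ones, and skin C3 at 136, 634 and 264 and 76.6 to 217.

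C4b (chr17:34728381-34743897; its reads may be split with the near-identical C4a) had the largest increase of the kidney members, from 6.82, 11.8, 10.8 and 17.4 CPM in young to 117, 186 and 78.4 in vehicle libraries (3.44 ± 0.32 (SE, adjusted p = 5.21e-06)). In ABT-737 kidney it stood at 51.6, 23.6 and 45.4 CPM, lower than vehicle (-1.65 ± 0.32 (SE, adjusted p = 0.0147)) and higher than young (1.79 ± 0.34 (SE, adjusted p = 0.0114)), and no groups overlapped. The drug difference was not called without vehicle replicate 4 (adjusted p = 0.0625) or ABT-737 replicate 4 (0.0655), and the difference from young not without ABT-737 replicate 3 (0.0564). C4b was also higher in vehicle liver, at 1978, 2051 and 2262 against 926, 1233, 926 and 882 CPM (1.08 ± 0.23 (SE, adjusted p = 0.00393)). In lung the values were 461, 842 and 758 against 281, 199.6, 246 and 183 (1.59 ± 0.31 (SE, adjusted p = 0.00574)) and in skin 279, 829.6 and 393 against 33.7, 63.2 and 119 (2.79 ± 0.57 (SE, adjusted p = 0.0209)). The skin call was absent without young replicate 1 (adjusted p = 0.0858) or 2 (0.088). In liver, lung and skin ABT-737 against vehicle gave -0.57 (adjusted p = 0.274), -0.50 (adjusted p = 0.465) and -1.07 (adjusted p = 0.678) for C4b, which were not called.

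Cfb, encoding the protease of the alternative convertase, was higher in vehicle than in young mice in all 4 tissues, with the smallest estimate in kidney and the largest in lung. In lung it stood at 36.1, 80.8, 45.8 and 49.6 CPM in young, 239, 340.1 and 1034 in vehicle and 117, 237 and 226 in ABT-737 libraries, and no groups overlapped. The lung differences were 3.35 ± 0.48 (SE, adjusted p = 0.00259) for vehicle against young, -1.48 ± 0.49 (SE, adjusted p = 0.175) for ABT-737 against vehicle and 1.87 ± 0.46 (SE, adjusted p = 0.0485) for ABT-737 against young. The last was not called without any one young library or ABT-737 replicate 5 (adjusted p from 0.0972 to 0.183). Skin Cfb rose from 17.2, 17.1 and 30.2 to 58.3, 133 and 291 CPM (2.89 ± 0.60 (SE, adjusted p = 0.0215), not called without young replicate 1 or 2 or vehicle replicate 5) and liver Cfb from 1880.3, 2042, 1512 and 1822 to 3264, 3042 and 3539 (0.86 ± 0.23 (SE, adjusted p = 0.0132), adjusted p = 0.0562 without young replicate 3). In kidney, where Cfb is well expressed, it was at 644 to 803 CPM in young and 965 to 1165 in vehicle libraries (0.57 ± 0.14 (SE, adjusted p = 0.0137), adjusted p = 0.0518 without young replicate 2 and 0.055 without vehicle replicate 4).

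The inhibitors of the C3 step did not share this pattern in liver. Cfi, the protease factor I, and C4bp, the C4b-binding protein, differed there by 0.01 (adjusted p = 0.993) and 0.05 (adjusted p = 0.955) between vehicle and young mice. Vehicle replicate 3 was low for both, with 211 and 50.6 CPM. In kidney Cfi was called (1.27 ± 0.40 (SE, adjusted p = 0.0482)), but the groups overlapped and the call was absent in 6 of the 10 fits that leave out 1 library, such as that without vehicle replicate 4 (0.79, adjusted p = 0.278).

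**Figure D4:**
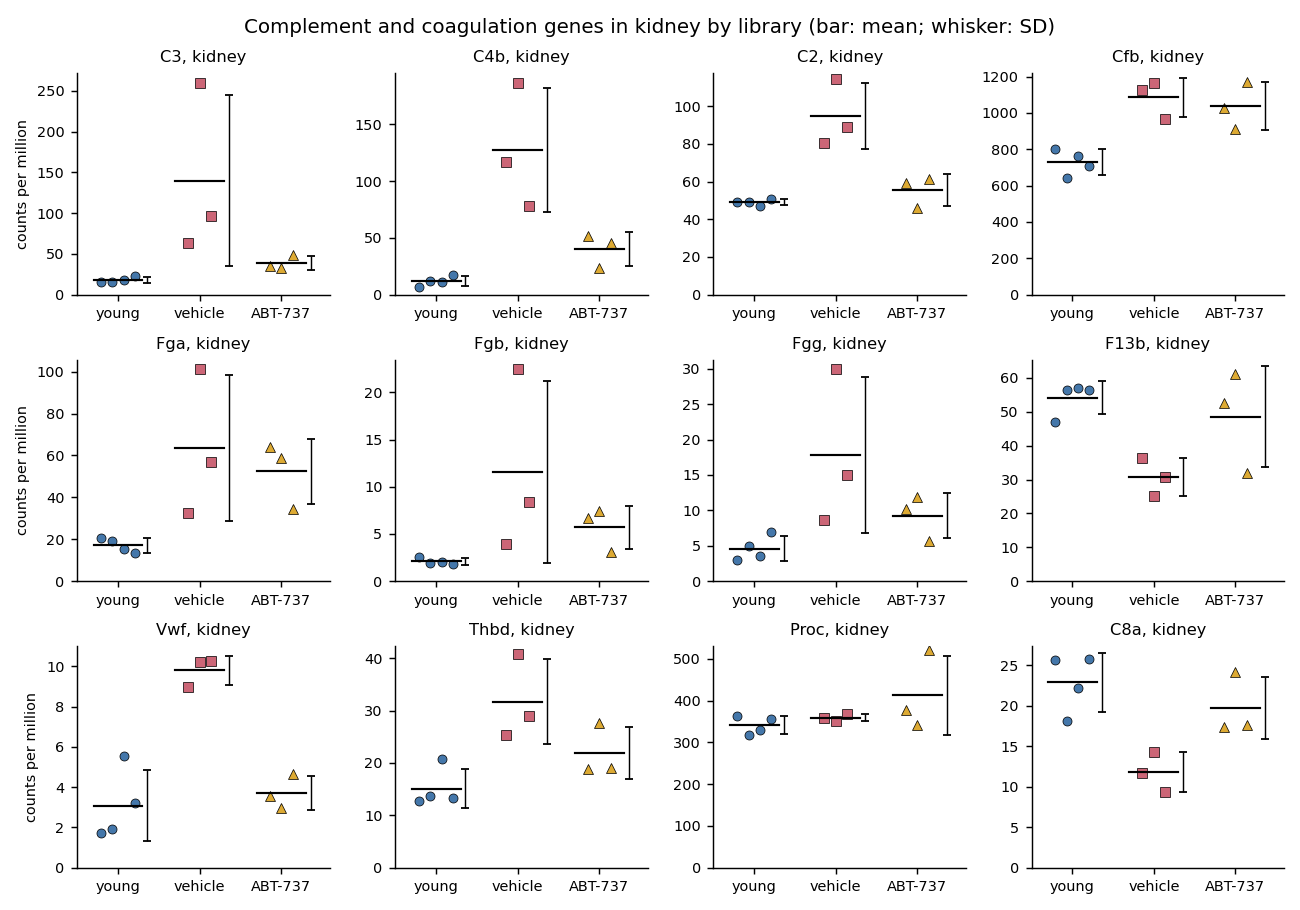
CPM in each kidney library for complement and coagulation genes other than C1q, with points for libraries, a bar for each group mean and a whisker for the SD. Vehicle replicate 4 is the highest library for C3 and the fibrinogen genes, and F13b goes the other way, with all vehicle libraries below the young ones.

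Genes of the terminal pathway, whose products build the membrane attack complex, were lower or not called, except C6 in skin. Liver C9, the pore-forming component, had 11 to 25 counts in young libraries, 0 to 12 in vehicle libraries and 0 to 1 in ABT-737 libraries. It was lower in vehicle than in young liver (-1.78 ± 0.54 (SE, adjusted p = 0.026), adjusted p = 0.0647 without young replicate 2 and 0.125 without vehicle replicate 4) and lower in ABT-737 than in young liver (adjusted p = 0.00639; 0.0562 without ABT-737 replicate 4). Because ABT-737 libraries of liver held 1 count at most, the size of the second difference is not given. The other liver genes of the pathway, Hc, C6, C8a, C8b and C8g, had log2 differences from -0.61 to 0.20 between vehicle and young and were not called.

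In kidney C8a was at 18.1 to 25.7 CPM in young and lower, at 9.34 to 14.3, in vehicle libraries (-0.96 ± 0.23 (SE, adjusted p = 0.0107), adjusted p = 0.066 without vehicle replicate 5) and stood at 17.4 to 24.1 CPM after ABT-737, where the difference from vehicle was not called (0.76 (adjusted p = 0.154)). C8g, which overlaps Fbxw5 on the opposite strand, gave -0.25 (adjusted p = 0.346) in kidney. Skin C6 stood at 3.58, 2.85 and 5.41 CPM in young and 8.70, 30.3 and 14.2 in vehicle libraries (2.13 ± 0.54 (SE, adjusted p = 0.0359)), and it was not called without young replicate 1, 2 or 3, vehicle replicate 4 or 5 or ABT-737 replicate 5 (adjusted p up to 0.125). Lung Hc and C6 were not called (-0.10 (adjusted p = 0.853) and -0.66 (adjusted p = 0.231)).

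Among the vitamin K-dependent proteases and the contact system, 7 of 11 liver genes were not called between vehicle and young mice, F11 and Klkb1 were lower and the kininogens higher. F11, encoding factor XI, stood in liver at 82.3, 86.4, 74.1 and 81.6 CPM in young, 16.9, 23.8 and 39.7 in vehicle and 19.2, 34.8 and 33.6 in ABT-737 libraries. Old libraries of both kinds lay below all young ones (-1.48 ± 0.28 (SE, adjusted p = 0.00149) for vehicle and -1.40 ± 0.30 (SE, adjusted p = 0.00831) for ABT-737 against young). Klkb1, plasma prekallikrein, was at 426 to 683 CPM in young and lower, at 187 to 381, in vehicle libraries (-0.91 ± 0.26 (SE, adjusted p = 0.0214), adjusted p = 0.0618 without young replicate 1 and 0.0843 without vehicle replicate 4) and stood at 406 to 497 after ABT-737 (0.74 (adjusted p = 0.175) against vehicle).

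Kng1 and Kng2, paralogs that encode the kininogens and may share reads, were higher in vehicle than in young liver by 0.70 ± 0.22 (SE, adjusted p = 0.0317) and 0.76 ± 0.21 (SE, adjusted p = 0.015). Without any one young library, vehicle replicate 5 or ABT-737 replicate 4, Kng1 was not called (adjusted p up to 0.0956), and Kng2 was not without young replicate 4 (0.0561). Prothrombin (F2), factor VII (F7), factor IX (F9), factor X (F10), factor XII (F12), protein C (Proc) and protein S (Pros1) were not called in liver, with log2 differences from -0.42 for F2 to 0.89 for Pros1. In kidney the strongly expressed Proc and Kng2 were not called, at 317 to 362 and 415 to 469 CPM in young and 352 to 368 and 422 to 489 in vehicle libraries (0.07 (adjusted p = 0.789) and 0.09 (adjusted p = 0.697)).

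The fibrinogen genes, which encode the 3 chains of the clot protein, were higher in vehicle-treated than in young kidney. There, Fga stood at 20.5, 19.2, 15.1 and 13.3 CPM in young, 32.4, 101 and 56.96 in vehicle and 63.9, 58.6 and 34.6 in ABT-737 libraries. Both old groups lay above the young one without overlap and overlapped each other (1.86 ± 0.31 (SE, adjusted p = 0.000929) for vehicle and 1.61 ± 0.32 (SE, adjusted p = 0.0127) for ABT-737 against young, -0.24 ± 0.32 (SE, adjusted p = 0.779) for ABT-737 against vehicle). Fgb had 6, 7, 7 and 4 counts in young, 10, 33 and 18 in vehicle and 13, 15 and 6 in ABT-737 libraries, and Fgg 7, 18, 12 and 15, 22, 44 and 32 and 20, 24 and 11. Vehicle replicate 4 was highest for all 3 genes. The vehicle differences from young were 2.33 ± 0.52 (SE, adjusted p = 0.00708) for Fgb and 1.90 ± 0.40 (SE, adjusted p = 0.00537) for Fgg, and without vehicle replicate 4 Fgb was at 1.52 (adjusted p = 0.0555). Fga above young in ABT-737 kidney was not called without young replicate 3 or 4 or ABT-737 replicate 3 (adjusted p from 0.0556 to 0.0622).

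The hepatocyte marker list summed in kidney to 1818 to 2358 CPM in young, 1212 to 1509 in vehicle and 1561 to 2556 in ABT-737 libraries, and 0 of 7 tested genes were higher and 1 lower in vehicle than in young kidney. Albumin (Alb) had 9, 28, 30 and 12 counts in young, 14, 37 and 10 in vehicle and 7, 22 and 15 in ABT-737 kidney libraries and was not called (0.68 (adjusted p = 0.419)). Its highest library, also in CPM, was vehicle replicate 4, as for fibrinogen. Alb made up little of the list sums, so these sums rest mostly on other listed genes and do not measure hepatocyte RNA in kidney. Whether kidney cells transcribe those genes was not tested. Blood cell markers rose in vehicle kidney, with 6 of 6 red cell and 4 of 5 platelet genes higher, and red cell sums of 1369 to 7668 CPM in young, 15399 to 15654 in vehicle and 10017 to 15317 in ABT-737 libraries. Their part in the fibrinogen values was not tested.

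In liver, fibrinogen was not called between vehicle and young mice. Fga stood at 4363, 4804, 3391 and 4072 CPM in young, 3707, 8372 and 5659 in vehicle and 6313, 4575 and 4315 in ABT-737 libraries, Fgb at 5008, 5792, 3985 and 4595, 3259.6, 8371 and 6466 and 5493, 4780.5 and 4168, and Fgg at 1884, 1856, 1501 and 1907, 388, 2906 and 2162 and 1073, 1510.4 and 1159.8. Vehicle replicate 3 was the lowest vehicle library for each gene, and for Fgg it fell far below the others. The log2 differences were 0.51 (adjusted p = 0.217) for Fga, 0.32 (adjusted p = 0.475) for Fgb and 0.03 (adjusted p = 0.968) for Fgg. Without vehicle replicate 3, Fga was called higher in vehicle than in young liver (0.70, adjusted p = 0.0328) and Fgg lower in ABT-737 than in vehicle liver (-0.96, adjusted p = 0.0109). Genes of the acute phase list, in contrast, were higher in vehicle than in young liver for 7 of 8 tested and lower after ABT-737 for 7 of 8, with sums of 4784 to 7561 CPM in young, 18934 to 78422 in vehicle and 7959 to 13158 in ABT-737 libraries, and hepatocyte markers were higher for 2 of 12 and after ABT-737 changed for 0 of 12.

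F13b, encoding the carrier subunit of factor XIII, was lower in old liver. It had 35, 59, 56 and 33 counts in young libraries, 0, 14 and 17 in vehicle libraries and 2, 2 and 1 in ABT-737 libraries. All old libraries lay below all young ones, also in CPM, with 65.5, 84.96, 82.99 and 61.2 CPM in young and 0, 15.9 and 21.1 in vehicle libraries (-2.24 ± 0.37 (SE, adjusted p = 0.000523)). The difference between ABT-737 and young liver was called (adjusted p = 0.000559) but has no reliable size, because no ABT-737 library exceeded 2 counts. In kidney F13b was lower in vehicle than in young libraries as well, at 25.2 to 36.3 against 46.9 to 57.1 CPM (-0.80 ± 0.21 (SE, adjusted p = 0.0169)), and stood at 32.01 to 61.1 after ABT-737 (0.64 (adjusted p = 0.182) against vehicle). The kidney call was absent without vehicle replicate 4 (adjusted p = 0.0805) or 5 (0.0662). Plasminogen (Plg) was not called in liver (0.06 (adjusted p = 0.868)).

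**Figure D5:**
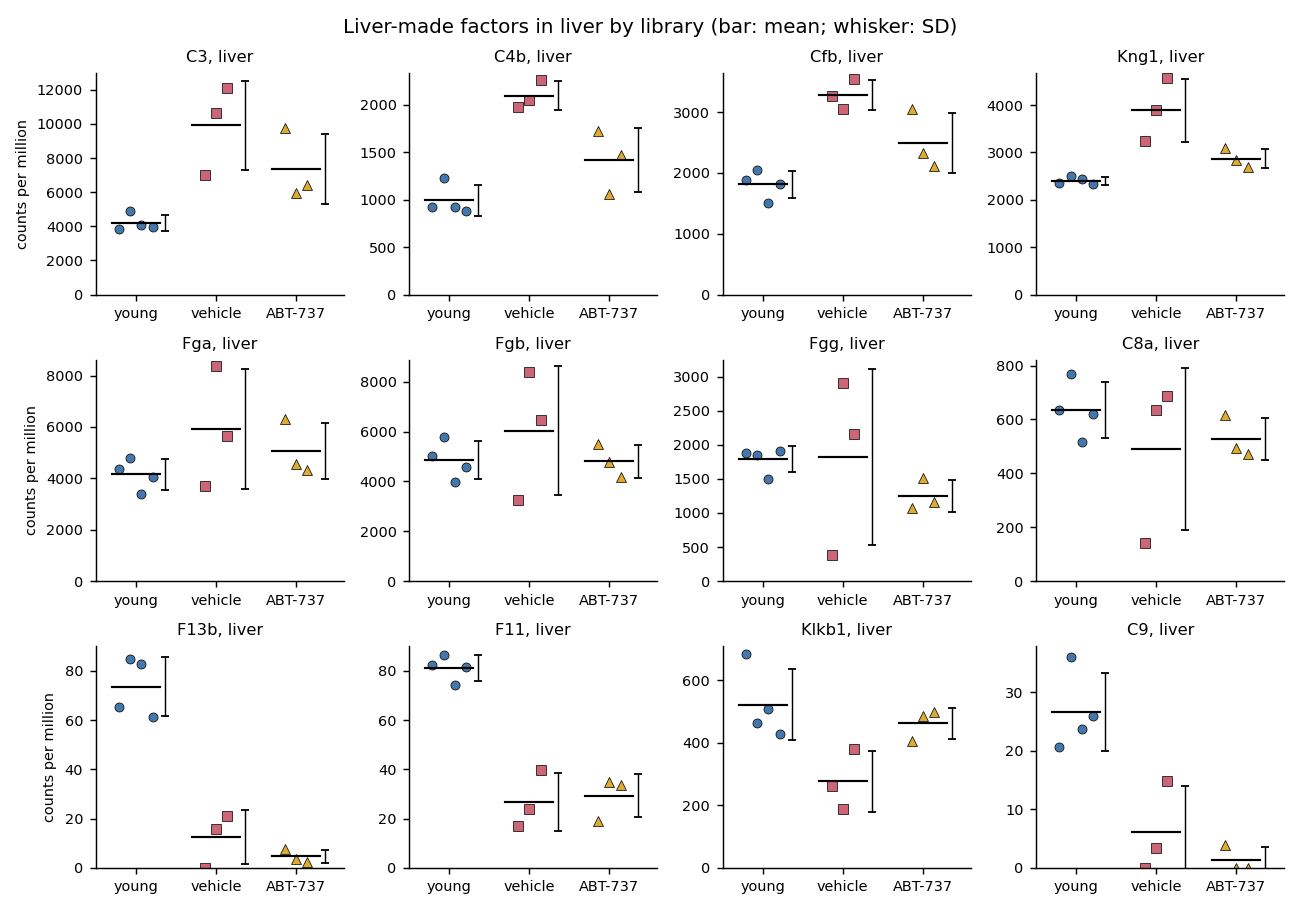
CPM in each liver library for members that hepatocytes secrete, with points for libraries, a bar for each group mean and a whisker for the SD. C3, C4b and Cfb lie higher in vehicle than in young libraries, F11 and F13b lie lower in both old groups, and the fibrinogen genes overlap between groups.

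Of the 3 vessel wall genes tested in each of kidney, skin and lung, Vwf and Thbd were higher in vehicle-treated than in young kidney and skin, F3 was not called in any of them, and none was called in lung. In kidney, Vwf (chr6:125552948-125686679) had 4, 7, 19 and 7 counts in young, 23, 15 and 22 in vehicle and 7, 6 and 9 in ABT-737 libraries (1.61 ± 0.36 (SE, adjusted p = 0.00723) for vehicle against young, -1.38 (adjusted p = 0.113) for ABT-737 against vehicle). Thbd (chr2:148404471-148408188), the thrombin receptor that starts protein C activation, stood at 12.8, 13.7, 20.7 and 13.3 CPM in young, 25.4, 40.8 and 28.9 in vehicle and 18.9, 27.6 and 19.1 in ABT-737 kidney (1.02 ± 0.23 (SE, adjusted p = 0.00803)). In CPM the vehicle libraries lay above all young ones for both genes.

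In skin Vwf rose from 7.88, 12.5 and 19.8 to 35.7, 52.9 and 60.4 CPM (1.86 ± 0.35 (SE, adjusted p = 0.0176)) and Thbd from 7.88, 7.41 and 13.5 to 30.02, 37.7 and 45.4 (1.95 ± 0.40 (SE, adjusted p = 0.0205)), and neither was called without young replicate 1 or 2 or vehicle replicate 5 (adjusted p from 0.0548 to 0.0895). In lung Vwf stood at 508, 568, 579.5 and 346 CPM in young and 396, 974 and 322 in vehicle libraries (0.17 ± 0.39 (SE, adjusted p = 0.799)), and Thbd at 374, 339, 568 and 309 and 437, 361 and 139.7 (-0.35 ± 0.36 (SE, adjusted p = 0.551)). In both, the libraries of the 2 groups overlapped. Endothelial markers were higher for 1 of 10 tested in kidney and 4 of 10 in skin and lower for 1 of 10 in lung. They summed in skin to 95.2 to 151 CPM in young, 219 to 317 in vehicle and 128 to 189 in ABT-737 libraries. Skin vehicle sums thus lay above both other groups without overlap, as for Vwf and Thbd against young skin. In kidney the sums overlapped, at 282 to 316 CPM in young, 300 to 450 in vehicle and 276 to 396 in ABT-737 libraries. In lung they were 2758 to 3196 CPM in young, 735 to 2253 in vehicle and 1768 to 2505 in ABT-737 libraries. Platelet markers were higher for 4 of 5 in kidney, 4 of 4 in skin and 5 of 8 in lung, and skeletal muscle markers in skin summed to 46622 to 65266 CPM in young, 7299 to 33339 in vehicle and 12068 to 38063 in ABT-737 libraries. Their part in these values was not tested. Tissue factor (F3) was not called in kidney, lung or skin (-0.29 (adjusted p = 0.519), 0.49 (adjusted p = 0.476) and 0.71 (adjusted p = 0.127)).

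Members in ABT-737 mice differed from young mice less often than members in vehicle mice did, by count, although the groups share the young libraries and the difference in counts was not tested. In kidney 4 of 25 members were higher (C4b, C1qa, Fga and Mbl1; 1.38% of all genes) and 0 lower (0.737%). There were 2 without young replicate 2, 3 or 4. In liver 3 of 37 were lower (F13b, C9 and F11; 5.27%) and 0 higher (3.13%). In lung 3 of 20 were higher (C1qc, C1qa and Cfb; 2.13%), but 0 without any one young library or ABT-737 replicate 5, 5 without vehicle replicate 4 or ABT-737 replicate 3 or 4, and 8 without vehicle replicate 5. For the counts of 0, 0 kidney members were lower and 3 liver members higher at an unadjusted p under 0.05, and DESeq2 called 0 lower in kidney and 1 higher in liver. Over all genes in either direction, 1864 in kidney and 1336 in liver had such an unadjusted p, and DESeq2 called 353 and 456.

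Whether the ABT-737 effect on a member differed between tissues was tested in a fit of kidney, liver and lung together. For C1qa the effect in liver minus that in kidney was -0.996 ± 0.53 (SE, adjusted p = 0.735), and liver minus lung was -1.58 ± 0.53 (SE, adjusted p = 0.185). The second was called only without lung ABT-737 replicate 3 (adjusted p = 0.0481). Called members numbered 0 for liver minus kidney (0.0839% of all genes) and 0 for lung minus kidney (0%), with 6 members at an unadjusted p under 0.05 in each and 0 called by DESeq2. Of all 13107 genes tested, 964 and 1220 had an unadjusted p under 0.05, and DESeq2 called 27 and 12. For liver minus lung, F5, which encodes factor V, was the single member called (0.29% of all genes), at -2.86 ± 0.66 (SE, adjusted p = 0.0435). F5 had 1 to 7 counts in vehicle and 5 to 27 in ABT-737 lung, too few to pass the filter in lung alone, overlaps Gm16548 on the opposite strand, and gave -0.15 (adjusted p = 0.902) in liver. It was not called in 24 of the fits that leave out 1 library, with adjusted p-values up to 0.157.

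Other genes of the pathways, from lists of 25 complement and 35 coagulation and fibrinolysis genes that hold no member, are given as counts beside the shares of all genes called. Between vehicle and young kidney, 5 of 14 tested complement genes were higher and 2 lower, and 6 of 21 coagulation genes were higher (7.75% of all genes higher and 5.5% lower). Among them were the inhibitor gene Serpina10 (log2 fold change 2.89), the complement receptor subunit Itgam (3.00), the protease inhibitor Serpine2 (1.30), the plasminogen receptor subunit Anxa2 (0.87) and C1s1, the partner protease of C1r (1.17). In liver 3 of 10 complement genes were higher, and 1 of 19 coagulation genes was higher and 1 lower (11.7% and 10.8% of all genes, which the coagulation counts did not exceed). Called liver genes were C4a (1.13), the C1 inhibitor Serping1 (0.82), clusterin (Clu, 0.79), Serpina10 (0.78) and Apoh, which was lower (-0.97).

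In lung 2 of 16 complement genes were higher and 1 lower and 2 of 19 coagulation genes higher and 1 lower, shares near those of all genes (8.15% higher and 4.73% lower), with the prothrombinase gene Fgl2 (3.00), Itgam (3.13) and C4a (1.54) higher and vitronectin (Vtn, -2.69) and the protease-activated receptor F2rl1 (-1.35) lower. In skin 3 of 15 and 2 of 16 were higher (5.84% of all genes), namely Itgam (3.20), C1s1 (2.45), the collectin Colec11 (2.24), the factor XIII A subunit F13a1 (2.34) and the protein C receptor Procr (1.82). Between ABT-737 and vehicle mice, edgeR called 0 genes of either list in any tissue. At an unadjusted p under 0.05 there were, of the complement list, 1 higher and 5 lower in kidney, 0 higher and 4 lower in liver, 2 higher and 1 lower in lung and 0 higher and 4 lower in skin, and of the coagulation list 2 higher and 4 lower in kidney, 1 higher and 4 lower in liver, 1 higher and 2 lower in lung and 0 higher and 1 lower in skin. DESeq2 called 0 of the first list and 1 of the second over the 4 tissues.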

How the data were processed

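RNA from whole tissue of 39 Prf1-/- samples was sequenced from the 3′ end by a bulk form of MARS-seq, in which barcoded samples are pooled before amplification. The authors deposited raw gene counts as whole numbers, with skin in a table of its own and the other tissues in a second table, so no level was compared between tables. The submitters' processing notes name bcl2fastq, HISAT 0.1.5, HOMER and mm10. Whether reads with the same molecular barcode were collapsed and whether strand was used in counting are not given in the sources used here. If reads were not collapsed, counts are not independent molecules.

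Counts were fitted per tissue with edgeR 4.0.16 and limma 3.58.1 in R 4.3.3 (filterByExpr, TMM, 3 groups, quasi-likelihood test), and kidney, liver and lung once together for differences between tissues. P-values were adjusted by the Benjamini-Hochberg method over all genes tested, 14224 for skin, 11949 for lung, 11123 for kidney and 5583 for liver. The code was tested on simulated data. DESeq2 1.42.0, its size factors, 2 other filters, fits of only the compared groups, replicate blocks and each library left out were alternatives. Depth medians were 2485280 counts for skin, 2172924 for kidney, 1928934 for lung and 547867 for liver. Values of 3 counts or fewer in every library of a group were treated as at the floor, for counting error only. The share of all genes whose groups did not overlap was not counted, so statements on overlap only describe the values printed. The paper counts its RNA-seq groups in mice and describes the treated cohort as male, while the labels do not tie each library to a mouse, so p-values measure the spread between these samples. No pair of libraries was so alike as to be 1 library deposited more than once (lowest chi-square per degree of freedom 2.40). Only in lung did deviations of same-numbered vehicle and ABT-737 libraries correlate positively in every pair (0.18, 0.30 and 0.43), and a blocked value is given there. Vehicle replicate 4 of lung, however, correlated more with a drug library of another number. Single pairs also correlated positively in skin (replicate 5, 0.28), liver (replicate 4, 0.16) and kidney (replicate 5, 0.02). The pairing in lung comes from the data and not from the labels.

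The members, lists and named genes were chosen with earlier results of these data known. C1qa, C1qb, C1qc, C3, C4b, Fga, Fgb, Fgg, Vwf and Thbd were described in each tissue that tested them, with up to 10 further called members per tissue and up to 5 called pathway genes outside the members, by smallest adjusted p. Other members are given by ranges and counts.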

Additional observations from a re-analysis of the deposited data

Results flagged for a closer look

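In 8 of 82 groups of 4 young libraries, 1 library stood apart from the other 3 by Dixon's test, which flags about 1 in 20 groups by chance. In young kidney these were C1qc, at 41.4 CPM in replicate 2 against 35.0 to 35.8 in the others, F13b, at 46.9 CPM in replicate 1 against 56.5 to 57.1, F3, at 19.2 CPM in replicate 2 against 15.8 to 16.1, and Thbd, at 20.7 CPM in replicate 3 against 12.8 to 13.7. In young liver they were C4b, at 1233 CPM in replicate 2 against 882 to 926, C6, at 258 CPM in replicate 4 against 161 to 178, and Fgg, at 1501 CPM in replicate 3 against 1856 to 1907. The young lung library of replicate 1 held Fga at 26.3 CPM against 0 to 3.10 in the other 3, and it also had the highest sum of hepatocyte markers of the young lung libraries, 630 CPM against 56.6, 98.1 and 133 CPM. ABT-737 replicate 4 of lung had a higher hepatocyte marker sum, 871 CPM. Its fibrinogen, factor XIII B and plasminogen group summed to 7.33 CPM, against 41.9 in young replicate 1. Whether liver RNA contributed to the young library was not tested. The effect of ABT-737 on F5 was called different between liver and lung, by a log2 difference of -2.86, but the call was lost in 24 of 34 recomputations (adjusted p up to 0.157), and F5 was too low to pass the filter in lung alone.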

How the results depend on the processing

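Counts of called members were recomputed 360 times under other settings. In 289 cases the count stayed within 1.5 times that reported, and in 71 it did not. Of 3122 recomputed values of 164 gene results, 2891 kept their side of the threshold, 200 lost a call, 31 gained one and 0 reversed. DESeq2 gave 6 called members for ABT-737 against young in lung (783 of all genes) and 4 in skin (2116 of all genes). Without a filter beyond 1 count there were 7 for ABT-737 against young in lung, 4 in skin and 2 for ABT-737 against vehicle in lung (C7 and F5, both higher). With at least 10 counts in every library there were 0 for ABT-737 against young in liver, 0 for liver minus lung, and 9 and 6 for young liver against young kidney and lung, where fewer genes can be tested. Fits of only the 2 groups compared gave 3 for ABT-737 against vehicle in kidney, and for ABT-737 against young 0 in skin, 6 in lung and 9 in liver. With the exceptions named above for the filter, the cause of these changes was not tested.

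The replicate number as a block gave for vehicle against young 8 in kidney, 4 in liver and 4 in lung, for ABT-737 against young 0 in kidney, 1 in liver and 0 in lung, 3 for ABT-737 against vehicle in lung (all lower) and 1 for liver minus kidney. Only in lung did same-numbered vehicle and ABT-737 libraries deviate together in every pair, so elsewhere the block is not a paired analysis. In lung, vehicle replicate 4 still correlated more with a drug library of another number. With 1 library left out at a time, the counts for ABT-737 against vehicle were 0 to 2 in lung, 4 to 8 in liver and 1 to 8 in kidney, and those for ABT-737 against young 0 to 1 in skin, 0 to 8 in lung and 2 to 5 in kidney. For vehicle against young in skin they ranged from 0 to 13, for liver minus kidney from 0 to 2 and for liver minus lung from 0 to 1.

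Liver libraries were the shallowest, and C9, F13b and F11 there rest on few counts. In lung and skin, where drug-treated libraries spread widely, the absence of calls between ABT-737 and vehicle does not show that the members were alike. The skin calls between vehicle and young rest on 3 young libraries.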
